A study of Mus musculus with 16 samples.

Results

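The miR-130 and miR-301 family is a small group of microRNAs (miRNAs) that begin with the same letters, and 4 members had probes on the arrays used here: mmu-miR-130a, mmu-miR-130b, mmu-miR-301a and mmu-miR-301b, written below without the prefix for mouse. They were taken by name from the 604 mouse miRNAs present on both array designs. Of these, 175 were well above background on both arrays of at least 1 population and were tested, among them 3 of the 4 members. mmu-miR-301b was not tested.

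The arrays carried RNA of 8 freshly sorted cell populations of C57Bl/6 mice, all female and 6 weeks old. Every population was sampled in 2 biological replicates, and a replicate was RNA pooled from several animals. For the 3 progenitor populations a pool held 15 mice, the source was marrow, and the cells lacked the lineage markers used for the sort and carried CD135. MP cells, an abbreviation that the labels do not spell out, were CD117+ CD115-. The macrophage and dendritic cell progenitor (MDP) was defined by CD117 and CD115 together, and the common dendritic cell progenitor (CDP) by CD115 with low CD117. Also from marrow, at 5 mice a pool, were Gr1+ monocytes (CD11b+ CD115+ Gr1+) and plasmacytoid dendritic cells (PDC; B220+ CD11c int SiglecH+ CD317+). Spleens of 8 mice a pool gave 3 subsets of CD11c+ dendritic cells (DC), named CD4+ DC, CD8+ DC and CD4-CD8- DC, and the CD8+ DC had CD86 in their gate. The labels name no transgene, deletion or treatment. The first replicates were all hybridised on array design 1 and the second ones on array design 2, with 1 slide per design, so that each comparison can also be read within a design.

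A miRNA guides an Argonaute protein to messenger RNAs by pairing of its seed, the bases near its 5′ end, and lowers their translation and stability. miRNAs with one seed have largely overlapping predicted targets, which is why they are counted as a family even when their 3′ ends differ. Members of this family are known to repress Pparg, a nuclear receptor of fat and macrophage biology. miR-130a is known in human blood cells for its presence in stem and progenitor cells. miR-301a is known from human tumour cells to repress NKRF, a repressor of NF-kB.

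The mature sequences of 3 members were held by the RefSeq table used (GRCm38.p6), and the guide arm of miR-301b is named only. They are shown because the shared seed defines the group, while the bases after it decide what an array probe can separate. Capitals mark the seed, bases 2 to 8, from the 5′ end.
miR-130a: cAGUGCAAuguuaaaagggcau
miR-130b: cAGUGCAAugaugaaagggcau
miR-301a: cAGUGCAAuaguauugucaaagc
All 3 had the seed AGUGCAA. Counted from 1 at the 5′ end, miR-130a and miR-130b were identical at 20 of 22 positions and differed by U11A and A13G (the base of miR-130a first). miR-301a matched miR-130a at 12 of 22 positions and miR-130b at 11 of 22, and the common run ended after base 9. Of 1738 mature mouse miRNAs in the same table, 7 had this seed, and 4 of them had probes on the arrays: the 3 above and miR-721.

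The hairpins of miR-130b and miR-301b are neighbours, and their sequences are shown because the members they give were measured so differently. Capitals mark the family seed, which occurred once in each.
Mir130b hairpin: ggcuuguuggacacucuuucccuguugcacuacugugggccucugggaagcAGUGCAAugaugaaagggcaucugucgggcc
Mir301b hairpin: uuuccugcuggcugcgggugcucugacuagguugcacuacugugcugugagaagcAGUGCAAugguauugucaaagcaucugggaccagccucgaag
In the mm9 positions that the array files give for the probes, miR-130b lay at chr16:17124209-17124225 and miR-301b at chr16:17124551-17124569, 326 bases apart. miR-130a lay at chr2:84581317-84581334 and miR-301a at chr11:86926559-86926578. These are the positions of the longest probes, and each span is 1 base shorter than its probe. In the RefSeq annotation the hairpins of miR-130b and miR-301b lie within the span of the protein-coding gene 2610318N02Rik, that of miR-301a lies within the span of Ska2, and no gene spans that of miR-130a. No other array miRNA had a probe within 50 kb of any member, apart from miR-130b*, the other arm of the miR-130b hairpin.

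Each member had 20 spots per array, spread over 2 to 4 probes of different length. The longest probe of each is shown, since the 4 probes also define what cross-hybridisation is possible. They are DNA, written 5′ to 3′, and capitals mark the bases that pair with the seed.
miR-130a probe: atgcccttttaacaTTGCA
miR-130b probe: atgccctttcatcaTTGC
miR-301a probe: gctttgacaatactaTTGCAC
miR-301b probe: gctttgacaataccaTTGCA
The probes of the 4 members pair with 2 to 6 of the 7 seed bases and otherwise read the 3′ part. A miR-130b probe had at least 2 mismatches to the miR-130a hairpin, and a miR-130a probe at least 2 to the miR-130b hairpin. The probes of miR-301a and of miR-301b had 1 mismatch to the hairpin of the other.

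Unless given in units, values below are relative signals on the log2 scale: the mean processed signal of a miRNA's spots over the 75th percentile of its array, taken among 88 miRNAs that were detected throughout. A level is therefore relative to the other miRNAs of its array and not a number of molecules per cell. Fewer cells of a type and less RNA per cell cannot be told apart. Levels of different miRNAs were not compared, because each probe has its own brightness. Values under a floor of -5.32 on design 1 or -5.78 on design 2 were raised to it. Between 16.7 and 25.4 percent of the spots of an array were well above background, none was saturated, and 116 to 174 miRNAs were detected. The labelled cell types rest on surface proteins that these arrays do not measure. The myeloid miR-223 had a relative signal of 4.3 to 4.54 in Gr1+ monocytes and of 0.09 to 0.52 in PDC.

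miR-130a was present in the 3 progenitor populations and in PDC and was not well above background in monocytes or in any spleen DC. In replicates 1 and 2 its relative signal was -1.44 and -0.64 in MP, -2.96 and -2.60 in MDP and -3.61 and -3.92 in CDP. In PDC it was -4.31 and -3.97. On all 8 arrays of Gr1+ monocytes, CD4+ DC, CD8+ DC and CD4-CD8- DC it stood at the floor, with 0 of these arrays detected. The replicates of MP, MDP and CDP did not overlap with one another, and the whole span of centred population means was 4.51.

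The signals before scaling show how dim the floored arrays were. There, miR-130a averaged 160 and 343 units in MP, 58.4 and 55.2 in MDP and 41.6 and 35.5 in CDP. It gave 23.1 and 56 units in PDC. In CD4+ DC it gave 0.295 and 3.98 units and in CD8+ DC 1.8 and 5.16 units. The dimmest detected probe of an array had between 11.8 and 20.7 units on the 16 arrays, so the spleen DC and monocyte signals of this miRNA lay under it. Both miR-130a probes showed the pattern: in MP, MDP and CDP 100 percent of the spots of each were well above background, and in monocytes and spleen DC 0 percent. In PDC the share was 70.0 percent for the probe of 18 bases and 100 percent for that of 19 bases.

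**Figure D1:**
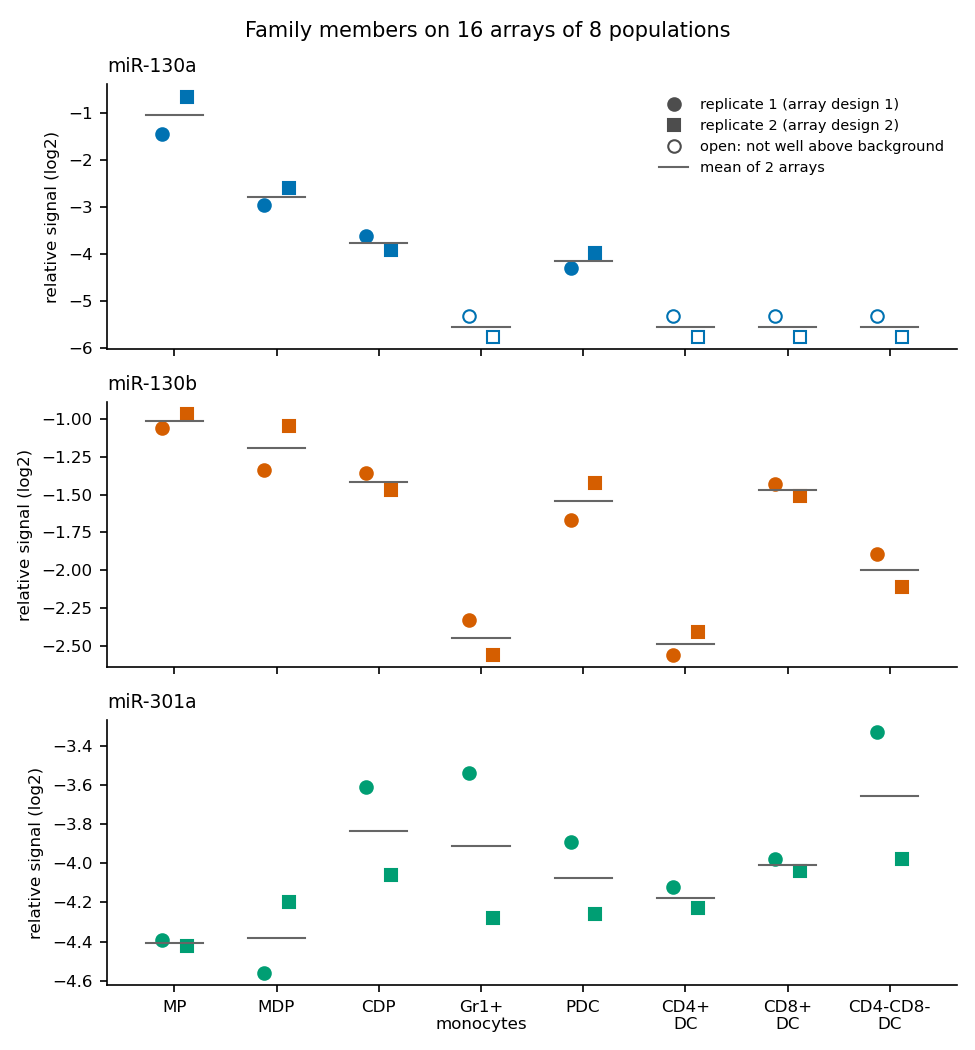
Relative signal (log2, vertical axis of each panel) of miR-130a, miR-130b and miR-301a on each array, by population. Progenitors come first, then the other marrow cells, then spleen DC. Circles are replicate 1 on array design 1, squares are replicate 2 on design 2, open symbols were not well above background, and bars are means of 2 arrays. miR-130a steps down over MP, MDP and CDP and lies at the floor in Gr1+ monocytes and spleen DC, miR-130b dips to -2.56 in Gr1+ monocytes and CD4+ DC, and the replicates of miR-301a lie apart by up to 0.74.

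A moderated F test over the 8 populations (limma, adjusted over 175 miRNAs) called miR-130a (adjusted p = 1.37e-05) and miR-130b (adjusted p = 8.12e-05) and did not call miR-301a (adjusted p = 0.157). It called 130 of the 175 tested miRNAs, or 74.3 percent, so that 2 of 3 members is near the background. For miR-301a the F test passed the threshold under 2 of the alternatives tried, with adjusted p = 0.0445 without MDP replicate 2 and 0.0388 when arrays were scaled over all miRNAs. One other background correction, normexp with 50 units added to each signal, left 3 of the 14 calls made here for miR-130a and miR-130b. These were the F test of miR-130a and the difference between differentiated and progenitor populations of both.

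Along the progenitors, miR-130a fell at the first step. Its relative signal was -2.78 on average in MDP, against -1.04 in MP, a log2 difference of -1.74 ± 0.33 (SE, n = 2 each, limma adjusted p = 0.0271). Both designs showed it, at -1.53 and -1.96. In this comparison 18 of 175 miRNAs were called, or 10.3 percent, and 1 of the 3 tested members. The call was lost (adjusted p = 0.153, difference -1.47) when arrays were scaled over all miRNAs, without the detection filter (0.165), and without MDP replicate 1 (0.148), MP replicate 2 (0.147) or MDP replicate 2 (0.077), with differences of -2.25 to -1.24 over the single arrays left out.

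At the next step, CDP averaged -3.76 and MDP -2.78, a difference of -0.98 ± 0.33 that did not pass the threshold (adjusted p = 0.241). No miRNA at all was called there (0 of 175, 0 percent) in the limma fit, while 26 had an unadjusted p under 0.05, miR-130a included, and 1 miRNA was called when arrays were scaled over all miRNAs. Over both steps together, miR-130a averaged -3.76 in CDP and -1.04 in MP, a difference of -2.73 ± 0.33, or a 6.62-fold fall (adjusted p = 0.000835). Of the 175 miRNAs, 37 were called in that comparison, or 21.1 percent, and the median difference of all of them was -0.21. The fall was -2.17 within design 1 and -3.28 within design 2. The erythroid miR-451, miR-144 and miR-486 had a summed relative signal, not logged, of 0.0283 to 0.534 in MP. This sum was 0 in MDP and 0.026 to 0.0404 in CDP, and its part in the falls from MP was not tested.

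miR-130b, by contrast, had levels in the progenitors whose differences did not pass the test. It had -1.06 and -0.97 in MP, -1.34 and -1.05 in MDP and -1.36 and -1.47 in CDP. The difference was -0.18 ± 0.14 for MDP minus MP (adjusted p = 0.547, 95 percent interval -0.51 to 0.15). It was -0.41 ± 0.14 for CDP minus MP (adjusted p = 0.0829, interval -0.73 to -0.08). The same comparisons gave 0.03 ± 0.24 and 0.57 ± 0.24 for miR-301a (adjusted p = 1 and 0.133).

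Monocytes and DC leave the MDP along different routes, and both detected miR-130 members were lower in monocytes. miR-130a was detected on 0 of 2 Gr1+ monocyte arrays, against 2 of 2 MDP arrays. On these arrays it was at least 4.93-fold lower in monocytes. For this bound a monocyte array takes either its own signal or that of its dimmest detected probe, whichever was higher. The bound does not include sampling error. The test belongs to the fitted difference, which depends on the floor and was -2.77 ± 0.33 (adjusted p = 0.000244, interval -3.53 to -2.02). miR-130b had -2.33 and -2.56 in Gr1+ monocytes, against -1.34 and -1.05 in MDP. The groups did not overlap, and the difference was -1.25 ± 0.14, a 2.38-fold fall (adjusted p = 0.000192), with -0.99 within design 1 and -1.51 within design 2. Of 175 miRNAs, 66 were called in this comparison, or 37.7 percent, and the median difference was 0.00. miR-301a had -3.54 and -4.28 in monocytes, against -4.56 and -4.20 in MDP, and the 2 designs gave 1.03 and -0.09.

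In PDC neither detected miR-130 member differed from CDP beyond the test. Between PDC and CDP, miR-130a differed by -0.37 ± 0.33 (adjusted p = 0.499, 95 percent interval -1.13 to 0.38), and miR-130b by -0.12 ± 0.14 (adjusted p = 0.635, interval -0.45 to 0.20). In the same comparison 66 of 175 miRNAs were called, or 37.7 percent, and 0 of the 3 tested members. For miR-130b the difference passed the threshold under another scaling: it was -0.65 when arrays were scaled over all miRNAs (adjusted p = 0.0393) and -0.45 after quantile normalization (adjusted p = 0.015). The miR-130b signal was -1.67 and -1.42 in PDC, against -1.36 and -1.47 in CDP.

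In the spleen, miR-130a was not well above background in any DC subset and miR-130b was lower on average. miR-130a was detected on 0 of 6 spleen DC arrays, against 2 of 2 CDP arrays. On these arrays it was at least 2.65-fold lower in spleen DC, by a bound that does not include sampling error. The fitted difference, set by the floor on the spleen side, was -1.79 ± 0.27 (adjusted p = 0.000362, interval -2.4 to -1.17). miR-130b averaged -1.98 in spleen DC and -1.42 in CDP, a difference of -0.57 ± 0.12 (adjusted p = 0.00262), which was -1.28 when the scaling took in all miRNAs. Here 99 of 175 miRNAs were called, or 56.6 percent, and 2 of 3 tested members, and the median of all tested miRNAs was 0.26, or -0.06 with that other scaling and 0.03 after quantile normalization. The erythroid miR-451 (3.67 ± 0.88), the lymphocyte miR-150 (3.61 ± 0.46) and the epithelial miR-200b (0.47 ± 0.15) were called higher in spleen DC than in CDP, and of the 4 lymphocyte markers 2 were higher and 2 lower; their part was not tested. CDP came from marrow and these DC from spleen, so tissue and cell type cannot be told apart.

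Set against spleen DC, PDC had more of both. PDC came from marrow, as did the monocytes compared with spleen DC below, so tissue and cell type cannot be told apart in either. miR-130a was detected on 2 of 2 PDC arrays, against 0 of 6 of spleen DC. On these arrays it was at least 2.04-fold higher in PDC, by a bound that does not include sampling error. The fitted difference, set by the floor on the spleen side, was 1.42 ± 0.27 (adjusted p = 0.00275, interval 0.8 to 2.03). This difference was 1.01 within design 1 and 1.82 within design 2. miR-130b was higher in PDC than in spleen DC by 0.44 ± 0.12 (adjusted p = 0.0134), and without PDC replicate 2 this was 0.31 (adjusted p = 0.159). The comparison called 75 of 175 miRNAs, or 42.9 percent. CD8+ DC and PDC overlapped in their miR-130b levels, at -1.43 and -1.51 in CD8+ DC and -1.67 and -1.42 in PDC.

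Among the spleen DC subsets, miR-130b was higher in CD8+ DC under 2 of the 3 scalings tried, and did not pass with normexp (0.63, adjusted p = 0.295). It stood at -1.43 and -1.51 in CD8+ DC, against -2.56 and -2.41 in CD4+ DC and -1.89 and -2.11 in CD4-CD8- DC, with no overlap. The difference between CD8+ DC and the mean of the other subsets was 0.77 ± 0.12, a 1.71-fold higher level (adjusted p = 0.00223), while the median of all tested miRNAs was 0.19. In this comparison 59 of 175 miRNAs were called, or 33.7 percent. Scaling over all miRNAs, which moved the median of all tested miRNAs to -0.23, took the miR-130b difference to 0.03 (adjusted p = 0.996), while quantile normalization kept the call. The summed relative signal of the erythroid markers, not logged, was 0.547 to 1.28 in CD8+ DC, 0.281 to 0.819 in CD4+ DC and 0.159 to 0.210 in CD4-CD8- DC. Of 3 markers 2, 1 and 1 were detected, and the part of this signal in the result was not tested. CD4+ DC had less than CD4-CD8- DC by 0.49 on the log2 scale, which did not pass (-0.49 ± 0.14, adjusted p = 0.0869), among 8 of 175 miRNAs called, or 4.57 percent.

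Gr1+ monocytes had a lower miR-130b signal than spleen DC as a whole (-0.46 ± 0.12, adjusted p = 0.0118), with 72 of 175 miRNAs called, or 41.1 percent. This call was lost under both other scalings (-0.24 and -0.08) and without Gr1+ monocytes replicate 2 (-0.32, adjusted p = 0.16), and normexp turned its direction (0.28). CD4+ DC and Gr1+ monocytes overlapped at the bottom of the miR-130b order. From the top, MP and MDP did not overlap (their replicates, centred within each design, lay 0.01 apart), CDP overlapped CD8+ DC, CD8+ DC overlapped PDC, and CD4-CD8- DC lay between these and the lowest pair.

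Taking the 5 differentiated populations against the 3 progenitors, miR-130a and miR-130b were both lower. miR-130a was detected on 2 of 10 differentiated arrays, both of PDC, against 6 of 6 progenitor arrays. The fitted difference was -2.74 ± 0.17 (adjusted p = 8.24e-07), a value that depends on the floor at which the other 8 differentiated arrays stand. miR-130b averaged -1.99 in differentiated and -1.21 in progenitor populations, and fell by 0.78 (-0.78 ± 0.07, 1.72-fold, adjusted p = 1.27e-05). CD8+ DC and PDC overlapped with CDP. Of 175 miRNAs, 110 were called, or 62.9 percent, and 2 of the 3 tested members, with a median of 0.14 over all tested miRNAs. miR-301a differed by 0.24 ± 0.13 (adjusted p = 0.123, 95 percent interval -0.05 to 0.53). Marker lists of other cell types moved in the same comparison. Of the lymphocyte list 2 of 4 were called higher and 1 lower. The summed signal of that list, not logged, was 0.824 to 1.25 in the progenitors. It was 0.854 to 0.918 in Gr1+ monocytes and 3.08 to 3.65 in PDC. In spleen it was 2.39 to 3.07 in CD4+ DC, 3.55 to 4.15 in CD8+ DC and 2.28 to 3.78 in CD4-CD8- DC. The erythroid miR-451 was higher by 2.23 ± 0.56 (adjusted p = 0.00676), and of the stromal, muscle and epithelial list 13 of 15 were never detected and none was on a progenitor or monocyte array, with miR-200b called higher by 0.28 ± 0.09. Their part in the result was not tested. All progenitors came from marrow and 3 of the 5 differentiated populations from spleen.

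**Figure D2:**
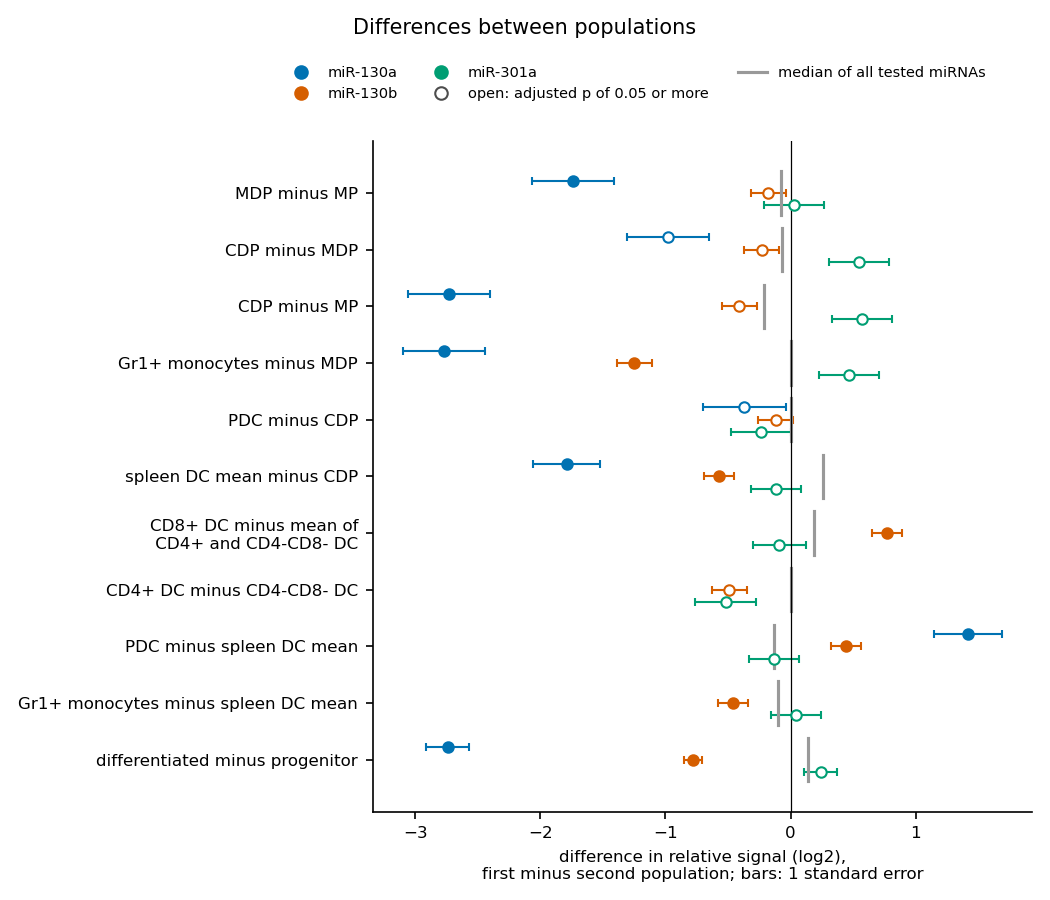
Difference in relative signal (log2, horizontal axis) of miR-130a, miR-130b and miR-301a in each of 11 comparisons, as the first named population minus the second, with bars of 1 standard error; filled points were called. Grey lines mark the median of all 175 tested miRNAs, and comparisons in which miR-130a was below background on both sides carry no point for it. miR-130a is at -2.73 for CDP minus MP, its points against Gr1+ monocytes and spleen DC are fitted to floored values and depend on the floor, and all points of miR-301a are open.

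miR-301a was measured on all 16 arrays and passed the test in 0 of the 11 comparisons. Its relative signal was -4.39 and -4.42 in MP, -4.56 and -4.20 in MDP and -3.61 and -4.06 in CDP. It was -3.54 and -4.28 in Gr1+ monocytes and -3.89 and -4.26 in PDC. In spleen it was -4.12 and -4.23 in CD4+ DC, -3.98 and -4.04 in CD8+ DC and -3.33 and -3.98 in CD4-CD8- DC. The centred population means spanned 0.75, each population overlapped the next in order, and the order ran from CD4-CD8- DC at the top to MP at the bottom. Without adjustment, only the p of CDP minus MP was under 0.05, and this difference was called under both other scalings, at 1.32 (adjusted p = 0.0227) and 1.06 (adjusted p = 0.0452). With the scaling over all miRNAs a pair of others was called as well, spleen DC minus CDP at -0.83 (adjusted p = 0.0286; otherwise -0.12) and CD8+ DC minus the other spleen DC at -0.84 (adjusted p = 0.0428; otherwise -0.09). Gr1+ monocytes minus spleen DC was called with normexp (0.88), and Gr1+ monocytes minus MDP (0.83) and differentiated minus progenitor (0.36) without MDP replicate 2. The signal came mostly from 1 probe. The probe of 21 bases was well above background in 100 percent of its spots, with a median of 49.2 units, and the probe of 20 bases in 32.5 percent, with a median of 13.9 units.

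miR-301b was detected on 0 of 16 arrays. Its probes of 17, 18 and 19 bases had 0 of 80 spots each well above background, and the probe of 20 bases had 2 of 80, or 2.50 percent, 1 in MP and 1 in CD4-CD8- DC. The median signal of that longest probe was 6.5 units and its highest 12.6. The level is thus below what these arrays separate from background in all 8 populations, and absence was not shown. miR-130b, whose hairpin lies beside it, was well above background in 100 percent of the spots of both its probes.

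These non-detections bear only in part on how far one member was read through the probe of another. miR-301a was detected in every population, and the miR-301b probes, with 1 mismatch to it, stayed dim. However, the shorter of miR-301a's own probes, as long as the longest miR-301b probe, was dim too. Its median was 13.9 units, with 32.5 percent of its spots well above background, against 6.5 units for that miR-301b probe. How far miR-301a was read through the miR-301b probes was therefore not tested. miR-130b was detected in monocytes and spleen DC, where the miR-130a probes, with 2 mismatches to it, together averaged 0.295 to 7.03 units. Taken singly, these probes gave -1.5 to 9.5 units. The other direction, miR-130a on a miR-130b probe in progenitors, was not tested.

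**Figure D3:**
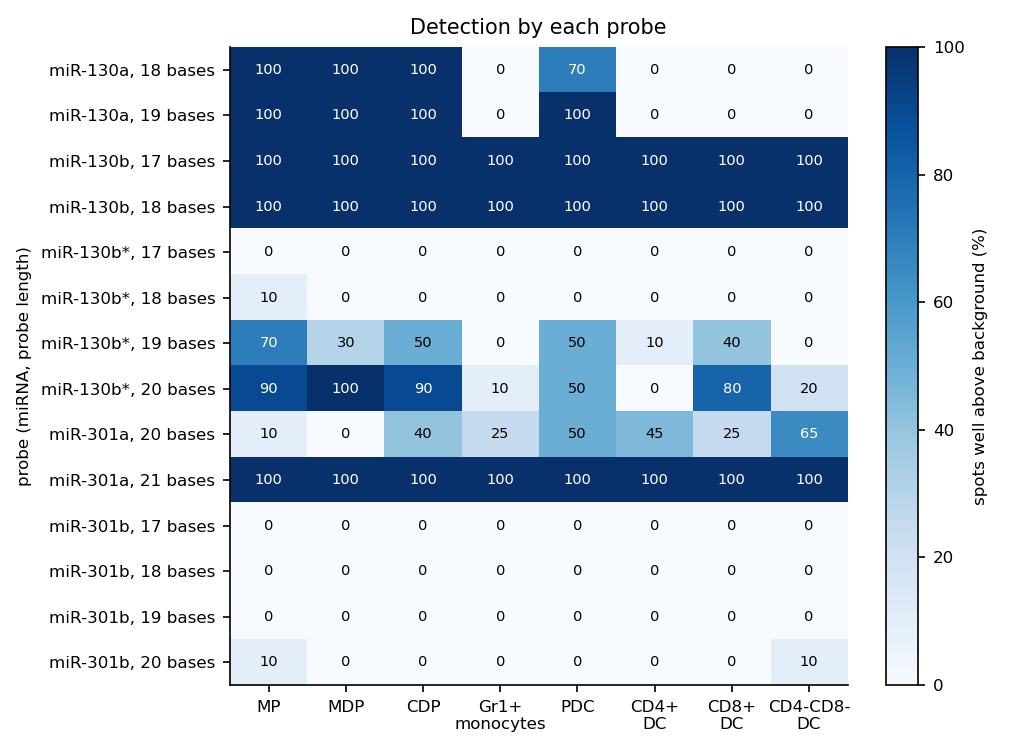
Percentage of spots well above background (number and shading) for each probe, by population, over both arrays of a population. Rows are the probes of the members and of miR-130b*, named by their length in bases. The miR-130a rows are at 100 in MP, MDP and CDP and at 0 in Gr1+ monocytes and spleen DC, the miR-130b rows are at 100 throughout, and the miR-301b rows are at 0 except for 10 in MP and in CD4-CD8- DC on the longest probe.

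The other arm of the miR-130b hairpin, miR-130b*, was seen by its longer probes. The probe of 20 bases is shown because this arm lies opposite the guide and carries no family seed.
miR-130b* probe: agtagtgcaacagggaaaga
On this probe the relative signal was -3.84 and -3.81 in MP, -3.95 and -3.79 in MDP and -4.31 and -4.33 in CDP. In CD8+ DC it was -4.66 and -4.37, and in PDC it was detected on replicate 2 alone, at -4.81. It was not well above background on any array of Gr1+ monocytes, CD4+ DC or CD4-CD8- DC. The values are of a single probe and are a description. Averaged over its 4 probes, miR-130b* passed the test in 1 of 11 comparisons, differentiated minus progenitor (adjusted p = 0.0073), with 3 of 10 differentiated arrays detected against 6 of 6 progenitor arrays, and the fitted -0.39 ± 0.10 depends on the floor.

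miR-721 has the family seed on another hairpin and is shown for its different 3′ part.
miR-721: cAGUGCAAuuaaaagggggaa
Its replicates differed widely: -5.74 and -3.30 bounded it in MP, and it was detected on 1 of 2 arrays in each progenitor population. It was called in 1 of 11 comparisons, CD8+ DC minus the other spleen DC (adjusted p = 0.00932). It was detected on 0 of 2 arrays of CD4-CD8- DC, so the fitted 2.01 ± 0.46 depends in part on values not well above background, with -3.43 to -2.71 in CD8+ DC, against -5.10 to -4.46 in CD4+ DC and -5.44 to -5.32 in CD4-CD8- DC.

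5 further miRNAs hold 6 of the 7 seed letters at a shifted position, so that their predicted targets overlap in part with those of the family. miR-19a and miR-19b belong to the oncogenic miR-17 clusters, and miR-148a, miR-148b and miR-152 form a family of their own. One of each kind is shown with its own seed in capitals.
miR-19b: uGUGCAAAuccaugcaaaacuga
miR-148a: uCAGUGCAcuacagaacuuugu
miR-19b shares GUGCAA with the family seed and miR-148a shares AGUGCA. Of the 5, 4 were tested, and miR-152 was detected on 0 of 16 arrays. None of the 4 was called in MDP against MP or in CDP against MP, where miR-130a was, and 10.3 and 21.1 percent of all tested miRNAs were. After quantile normalization 1 of the 4 rose in each. Between differentiated and progenitor populations 3 of 4 fell and 1 rose (2 fell and 0 rose with normexp), where 62.9 percent of all tested miRNAs were called. The list median was -1.07, against 0.14 for all tested miRNAs. miR-19a fell by 1.62 (-1.62 ± 0.11, adjusted p = 1.42e-06), miR-19b by 1.37 and miR-148a by 0.77, and miR-148b rose by 0.92 ± 0.07 (adjusted p = 3.37e-06). On progenitor arrays miR-148b had -5.53 to -5.29, at or near the floor, so the size of its rise depends on the floor. miR-19b had 0.64 to 1.21 over all progenitor arrays and stayed at or under 0.11 in the differentiated ones. The members of this list parted in PDC, where miR-19a and miR-19b were lower than in CDP (-1.80 ± 0.21 and -1.28 ± 0.22). There miR-148a and miR-148b were higher (1.03 ± 0.14 and 1.01 ± 0.13). Setting the scale by all miRNAs left 1 of the 4 higher and normexp left 0, with 2 lower each time. Quantile normalization kept 2 higher and 2 lower. The differences of miR-130a and miR-130b did not pass the test here. That of miR-130b did pass under both other scalings, at -0.65 (limma adjusted p = 0.0393) and -0.45 (adjusted p = 0.015, quantile normalization).

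A list of 12 miRNAs known from stem and progenitor cells served as company for miR-130a. In MDP against MP, 5 of its 6 tested members fell and 1 did not pass, while 10.3 percent of all tested miRNAs were called. The list median was -1.12, against -0.08 for all tested miRNAs. The count that fell was 0 of 6 when the scaling took in all miRNAs and 1 of 6 after quantile normalization. In CDP against MP, where 21.1 percent of all tested miRNAs were called, 6 of 6 fell (median -1.77, against -0.21), and 4 of 6 under either of these scalings. With normexp 0 of 6 fell in either comparison. Of the 6, let-7e was not detected in MDP or CDP, so its fitted -1.74 in each comparison depends on the floor. Between differentiated and progenitor populations 5 of 6 fell (3 of 6 with normexp), where 62.9 percent of all tested miRNAs were called in either direction. let-7e did not pass (-0.22 ± 0.17, adjusted p = 0.289). miR-126-3p, known for its role in blood stem cell quiescence and in endothelium, fell in that comparison too (adjusted p = 7.41e-08), and was detected in PDC but on 0 of 8 arrays of monocytes and spleen DC, so its fitted -2.81 ± 0.11 depends on the floor. In CD8+ DC against the other spleen DC, 3 of the 6 were lower and 0 higher, with 33.7 percent of all tested miRNAs called. With normexp 0 were lower. miR-130b went the opposite way, but its difference was 0.03 when arrays were scaled over all miRNAs. miR-126-3p and miR-196b were not detected in any spleen DC, so this comparison could not show a difference for them. let-7e was detected on 0 CD8+ DC arrays and miR-99a on 1, so their differences depend on the floor. This list was drawn up with results of these arrays known, so its direction is no separate evidence.

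The miRNAs most like each member were found by Pearson correlation over the 16 arrays, after the mean of each array design was removed, among all 175 tested. The arrays of a design share a slide and a floor, and all arrays were scaled in the same way, so r is given as a description. For miR-130a the most alike were miR-196b (r = 0.996), encoded in a Hox cluster, miR-126-3p (0.962), let-7c (0.927), let-7b (0.925) and miR-92a (0.894). miR-196b was detected on the same number of arrays, 8, and had -1.55 to -1.29 in MP, -3.04 to -3.00 in MDP, -4.25 to -3.86 in CDP and -4.13 to -3.92 in PDC. On the arrays of monocytes and spleen DC both stood at the floor, which raises r. For miR-130b the most alike were miR-222 (r = 0.917), miR-345-5p (0.913), miR-17* (0.828), miR-221 (0.827) and miR-126-3p (0.820). miR-221 and miR-222, which repress the cell cycle inhibitor p27 and the receptor KIT, had their lowest centred means in CD4+ DC, at -1.75 and -1.20, as did miR-130b at -0.79. No miRNA came as close to miR-301a, whose first was miR-15b (r = 0.513), followed by miR-142-3p (0.43), miR-16 (0.424), miR-342-3p (0.419) and miR-15a (0.412).

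**Figure D4:**
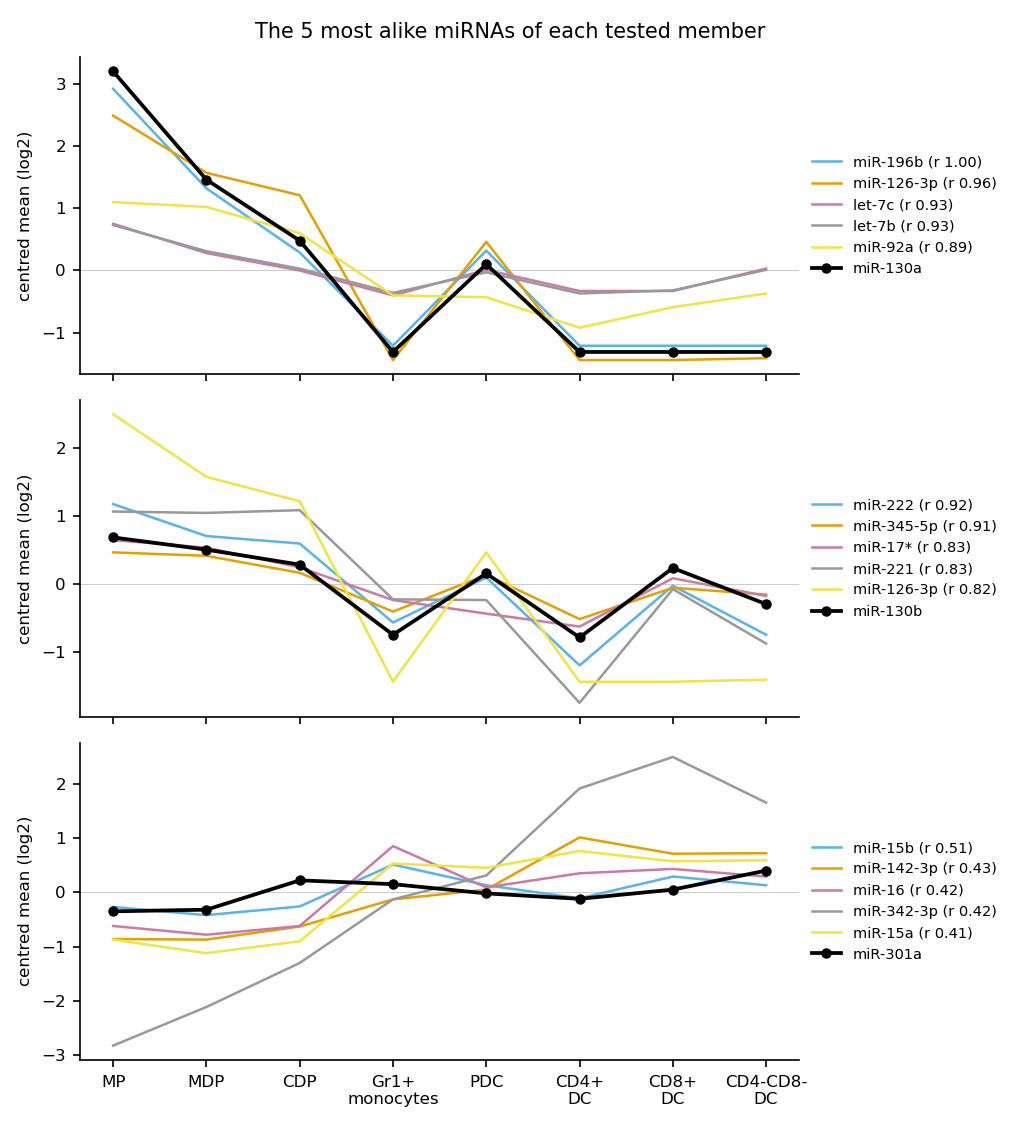
Mean relative signal of each population after removal of each design's mean (log2, vertical axis) for miR-130a, miR-130b and miR-301a (black, 1 panel each) with the 5 most alike of 175 tested miRNAs. Progenitors come first, then the other marrow cells, then spleen DC. The curve of miR-196b lies close to that of miR-130a, falling over MP, MDP and CDP. In PDC both lie near CDP and above the floored monocytes and spleen DC, while the curves beside miR-301a part from it.

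Within the family itself, miR-130a and miR-130b had r = 0.80 over the 16 arrays, miR-130a and miR-301a r = -0.51, and miR-130b and miR-301a r = -0.29. In CD8+ DC miR-130b was detected on 2 of 2 arrays and miR-130a on 0 of 2. miR-301a had its lowest mean in MP, overlapping MDP, the population in which miR-130a and miR-130b were highest.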

How the data were processed

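RNA labelled with Cy3 was measured on 16 1-colour Agilent miRNA arrays. The authors' array files hold the deposited spot intensity, background-subtracted by Agilent Feature Extraction, unlogged and unscaled; the version is 10.7.3.1 per the file headers and 9.1 per the submitters' processing notes. The deposited series tables held the same values at 3 significant digits. Spots marked as outliers were left out, and spots and then probes were averaged. Detection required at least 0.5 of a probe's spots well above background. Signals were scaled to the array's 75th percentile (among 88 miRNAs detected throughout), floored (5th percentile of detected values per design) and logged. limma 3.58.1 in R 4.3.3 fitted population means with array design (replicate number, slide and scan) as a block, and p-values were adjusted (Benjamini-Hochberg) over 175 miRNAs per comparison, called under 0.05. The 2 replicates limit the precision. Replicate numbers mark the array design, which the block takes up. Deviations of same-numbered arrays correlated in 28 of 28 pairs of populations (r 0.293 to 0.916). Design offsets and the floor of each design alone can give this, so it does not show that the samples were paired. The fit was tested on simulated data. Named were the members, their other arms, miRNAs of the same or overlapping seed, neighbours within 50 kb, the lists, and the 5 most alike of each member. Members and lists were chosen with earlier results of these data known.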

Additional observations from a re-analysis of the deposited data

How the results depend on the processing

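Of the 14 calls for miR-130a and miR-130b, 14 remained without the replicate block (F test of miR-130a adjusted p = 1.75e-06), 14 with the brightest probe, 14 with a floor 1 log2 unit lower, 13 with quantile normalization, 13 without the filter, 11 when scaled over all miRNAs and 3 with normexp; all 7 that could be tested remained among the 88 miRNAs detected on all arrays. With normexp, miR-130a gave -1.07 (MDP minus MP), -1.65 (CDP minus MP), -0.05 (Gr1+ monocytes minus MDP), -0.38 (spleen DC minus CDP) and 0.11 (PDC minus spleen DC), and miR-130b gave an F test adjusted p of 0.104 and differences of -0.36 (Gr1+ monocytes minus MDP), -0.42 (spleen DC minus CDP), 0.63 (CD8+ DC minus other spleen DC), 0.30 (PDC minus spleen DC) and 0.28 (Gr1+ monocytes minus spleen DC, reversed). In this setting 50 units were added to each signal, which makes log2 differences between dim signals smaller. The miR-130a signals of MDP and CDP, at 35.5 to 58.4 units, are of that size. The median normexp signal of Gr1+ monocytes replicate 1 was 417, against 61.8 to 75.9 on the other arrays. The cause of that median, and the part of the added units in the lost calls, were not tested. Scaling over all miRNAs gave -1.47 (miR-130a, MDP minus MP), 0.03 (miR-130b, CD8+ DC minus other spleen DC), -0.24 (miR-130b, Gr1+ monocytes minus spleen DC) and an F test adjusted p of 0.0388 (miR-301a); quantile normalization gave -0.08 for miR-130b in Gr1+ monocytes minus spleen DC. Without the filter, which tests 604 miRNAs, miR-130a in MDP minus MP stayed at -1.74 (adjusted p = 0.165). Leaving out 1 array at a time gave -2.25 to -1.24 for miR-130a in MDP minus MP, 0.31 to 0.57 and -0.60 to -0.32 for miR-130b in PDC and in Gr1+ monocytes minus spleen DC, and adjusted p of 0.0445 to 0.294 for the F test of miR-301a. Within designs 1 and 2, miR-130a gave -2.17 and -3.28 (CDP minus MP), 1.01 and 1.82 (PDC minus spleen DC) and -2.45 and -3.04 (differentiated minus progenitor), and miR-130b -0.99 and -1.51 (Gr1+ monocytes minus MDP).

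The number of miRNAs called moved by over 1.5 times in most comparisons. The upper ends 497, 476, 471 and 508 below are of 604 miRNAs, without the filter, and are not comparable with counts of 175. That setting takes in miRNAs that were not well above background on both arrays of any population. Among the settings that tested 175, the highest counts in these comparisons were 111, 82, 125 and 121. It was 18 for MDP minus MP (0 to 16 over the other settings), 37 for CDP minus MP (0 to 39), 66 for Gr1+ monocytes minus MDP (11 to 76), 66 for PDC minus CDP (31 to 73), 99 for spleen DC minus CDP (42 to 497), 59 for CD8+ DC minus other spleen DC (1 to 66), 8 for CD4+ DC minus CD4-CD8- DC (0 to 6), 75 for PDC minus spleen DC (16 to 476), 72 for Gr1+ monocytes minus spleen DC (50 to 471) and 110 for differentiated minus progenitor (56 to 508). Signal over background limits miR-301b on all arrays and miR-130a in monocytes and spleen DC, for which only bounds or no level can be given, and miR-130b* in monocytes, CD4+ DC and CD4-CD8- DC.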
